A study of Homo sapiens with 4 samples.

Results

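The 7 regulatory long noncoding RNA genes, namely MALAT1, NEAT1, KCNQ1OT1, NORAD, OIP5-AS1, CYTOR and PVT1, were followed in HepG2 cells that were mock-treated or exposed to 20 µM pyridostatin (PDS) for 24 h. The 7 genes were picked by name and matched to the expression table through their Ensembl identifiers, and all 7 were present among the 61906 genes of the table, 18007 of which were annotated as long noncoding RNA. HepG2 is an established human hepatocellular carcinoma line, here wild type, and PDS is a small molecule that binds G-quadruplexes (G4), which guanine-rich DNA and RNA can fold into. Poly(A) RNA was sequenced from 2 mock libraries (mock 1 and mock 2) and 2 PDS libraries (PDS 1 and PDS 2), and the comparison asks how the G4 ligand altered the level of these RNAs. The study describes the libraries as biological replicates, but separate cultures are not stated, so that the spread behind the p-values may be technical.

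Long noncoding RNAs act without being translated, many of them by holding proteins, chromatin or other RNAs in place. NEAT1 is the scaffold of paraspeckles, MALAT1 collects in nuclear speckles that store splicing factors, and KCNQ1OT1 silences the genes of its imprinted domain in cis. NORAD works in the cytoplasm and holds Pumilio proteins away from their messenger RNAs, OIP5-AS1 (cyrano) is a cytoplasmic RNA known for triggering decay of the microRNA miR-7, and CYTOR and PVT1 are raised in many tumours, with PVT1 lying next to MYC.

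The sequences that mark these RNAs are shown first, since the values refer back to them. NORAD (ENSG00000260032.2) is an unspliced RNA of 5401 bases on chromosome 20 (36045618 to 36051018, minus strand, GRCh38, GENCODE 44). Its exon held 15 Pumilio elements, searched as the letters TGTANATA on the transcript strand, or 2.78 per kb, whereas the mean over 14673 tested genes was 0.122 per kb. Among the 2627 tested genes of 4500 to 6500 exon bases, NORAD was the only one with at least 15 such elements, although 7 tested genes of any length reached this number. A stretch of NORAD with 3 Pumilio elements (chr20:36049498-36049725) is shown on the transcript strand, with the elements in capitals.
NORAD: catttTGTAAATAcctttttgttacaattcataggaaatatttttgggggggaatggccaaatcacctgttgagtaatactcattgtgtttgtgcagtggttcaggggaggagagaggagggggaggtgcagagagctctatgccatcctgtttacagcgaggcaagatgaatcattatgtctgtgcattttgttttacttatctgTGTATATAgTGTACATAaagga

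MALAT1 (ENSG00000251562.10) has another version in GENCODE 44 (ENSG00000251562.11), annotated as 1 exon block of 10434 bases on chromosome 11 (65497640 to 65508073, plus strand). Its mature end carries no ordinary poly(A) tail and is protected by a triple helix in which a genome-encoded A tract pairs with U-rich stretches. The A tract was found as a run of 13 adenines lying 1963 bases before the annotated end, and the surrounding window (chr11:65506001-65506120) is shown because the poly(A) enrichment of these libraries selects RNA by its adenines. Capitals mark the A run, and the T-rich stretches before it are the U-rich partners.
MALAT1: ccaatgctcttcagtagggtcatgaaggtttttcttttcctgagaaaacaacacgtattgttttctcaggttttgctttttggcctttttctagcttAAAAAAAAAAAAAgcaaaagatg

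G4 motifs, searched on the transcript strand as 4 runs of at least 3 G with loops of 1 to 7 bases, were present in the exons of 5 of the 7 RNAs, compared with 35.95% of tested genes. These shares are not matched for length, and a longer sequence has more room for a motif. NORAD was longer than 62.1% of tested genes, and every other member was longer than at least 89.4%. KCNQ1OT1 had 9, MALAT1 and NEAT1 had 4 each, NORAD had 3 and PVT1 had 2, while none was found in OIP5-AS1 or CYTOR. The last MALAT1 motif (chr11:65506734-65506758) lies beyond the A tract shown above, so the MALAT1 count and rate refer to the annotated exon. Per kb, NORAD (0.555) and MALAT1 (0.383) lay above the mean of tested genes (0.13), and NEAT1 (0.176), KCNQ1OT1 (0.0972) and PVT1 (0.0786) lay closer to it or below. These letters only describe the sequence, and no folding was measured in these files. An example is given for 3 of the RNAs at chr20:36046845-36046871 (minus strand), chr11:65504272-65504293 and chr11:65445416-65445430 (plus strand), with the G runs in capitals.
NORAD: GGGtgtttGGGGtGGGGGaaGGGGGGG
MALAT1: GGGatGGGaggaGGGGGtGGGG
NEAT1: GGGaGGGaGGGaGGG

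The promoter of NORAD (chr20:36050911-36051210, minus strand, RefSeq, GRCh38) also held a G4 motif, on the strand opposite to the transcript, so that it is read here as runs of C in capitals. The window runs from 250 bases before to 50 bases after the RefSeq start. Such a motif on either strand was present in 25% of 35116 windows of this kind, in 1 of the windows of MALAT1, and in none of those of OIP5-AS1 and CYTOR.
NORAD: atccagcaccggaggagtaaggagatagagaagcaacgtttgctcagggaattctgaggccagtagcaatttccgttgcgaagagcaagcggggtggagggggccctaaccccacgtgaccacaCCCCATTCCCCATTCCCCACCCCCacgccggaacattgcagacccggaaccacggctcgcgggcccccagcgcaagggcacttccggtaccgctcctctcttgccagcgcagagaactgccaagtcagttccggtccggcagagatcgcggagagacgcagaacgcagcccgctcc

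**Figure D1:**
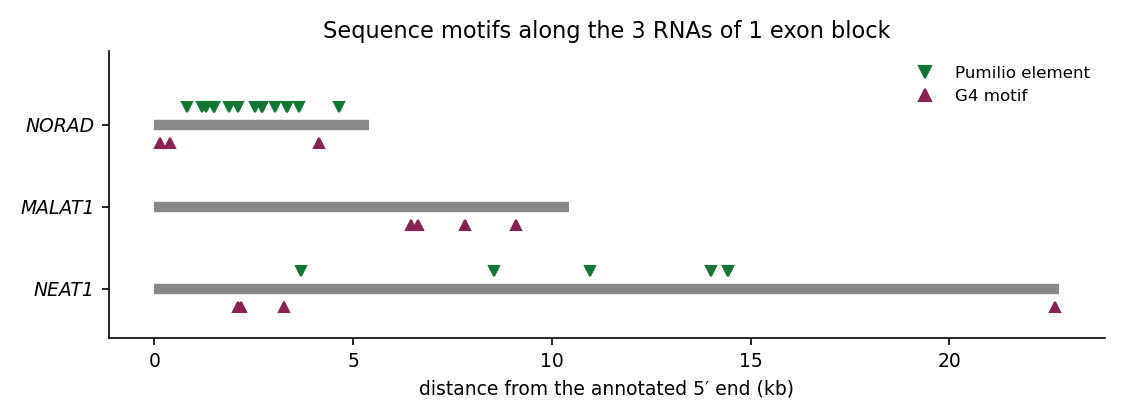
Position of G4 motifs (upward triangles) and Pumilio elements (downward triangles) along NORAD, MALAT1 and NEAT1, the 3 RNAs annotated as 1 exon block, in kb from the annotated 5′ end. The 15 Pumilio elements of NORAD spread over most of its 5401 bases, MALAT1 has none, and NEAT1 has 6 over 22767 bases.

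Levels differed widely among the 7 RNAs. Expression is given as TPM, the share of a library that a gene takes after correction for its length. For CYTOR, PVT1 and NORAD this length matched all annotated exons merged (17782, 25431 and 5401 bases, in 26, 59 and 1 exon blocks). A merged length can exceed that of any single transcript and so lower the TPM. Its part in the differences among the 7 RNAs was not tested. The mean over the 4 libraries was 206 TPM for NORAD, which placed it 2nd among the long noncoding RNA genes of the table, and 16.98 and 15.67 TPM for NEAT1 and OIP5-AS1. It was 1.502 TPM for CYTOR and 1.499 TPM for PVT1, 0.805 TPM for MALAT1 and 0.401 TPM for KCNQ1OT1. NORAD exceeded NEAT1 12.1-fold with no overlap between libraries, and OIP5-AS1 exceeded CYTOR 10.4-fold, again with no overlap. NEAT1 and OIP5-AS1 were not separated, since their libraries ranged from 12.0 to 26.5 and from 10.6 to 22.1 TPM, and neither were CYTOR and PVT1. The ranges of MALAT1 and KCNQ1OT1 over all 4 libraries overlapped, although MALAT1 was the higher of the pair in each library. Among the 18007 long noncoding RNA genes NEAT1 ranked 82nd and OIP5-AS1 93rd, CYTOR and PVT1 ranked 1204th and 1207th, and MALAT1 and KCNQ1OT1 ranked 1982nd and 3147th.

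**Figure D2:**
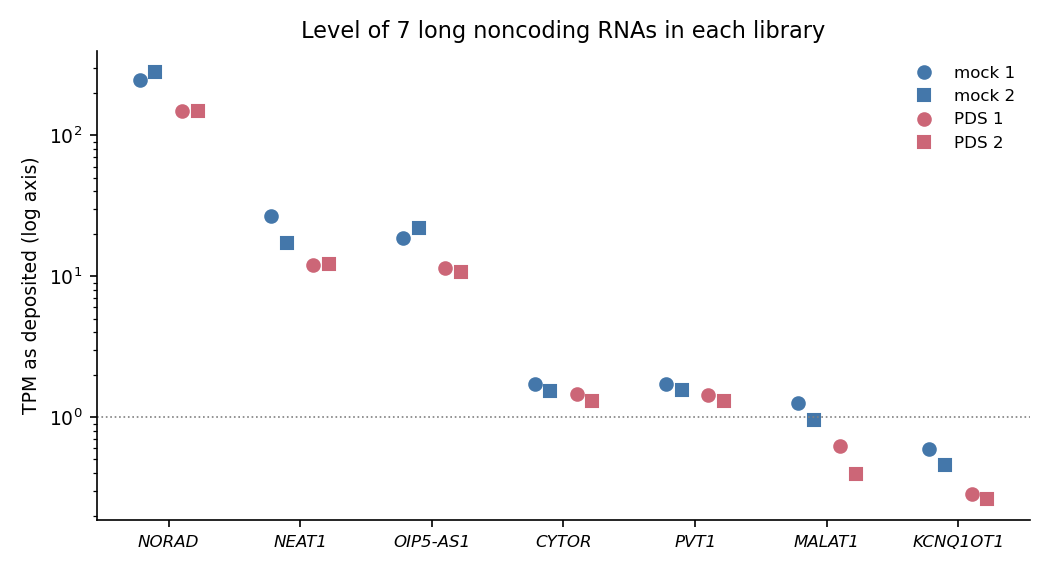
TPM as deposited (log axis) of each RNA in the 2 mock (blue) and 2 PDS (red) libraries, ordered by the mean. NORAD lies between 148 and 281 TPM, NEAT1 and OIP5-AS1 overlap, and MALAT1 and KCNQ1OT1 fall below or close to 1 TPM (dotted line).

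Facts of the libraries bear on all values. Recovered reads numbered 39085510 in mock 1, 30302657 in mock 2, 15528646 in PDS 1 and 19591876 in PDS 2, so that every RNA was measured with fewer reads after PDS. Genes of the mitochondrial genome took 15.3% and 14.5% of TPM in the mock libraries and 36.5% and 36.4% in the PDS libraries, and the median tested gene was lower by 0.55 on the log2 scale after PDS in the TPM as deposited. For this reason each library was scaled by its median-of-ratios factor (1.23, 1.27, 0.806 and 0.793), and changes are relative to the median gene. All 9 hepatocyte markers, such as ALB and AFP, were expressed above 50 TPM in every library, whereas the 5 fibroblast markers summed to at most 0.604 TPM, the 4 erythroid markers to at most 0.428 TPM and the 4 endothelial markers to at most 3.999 TPM. Of the immune markers, PTPRC, CD3E and CD68 stayed under 0.2 TPM, while LYZ was measured at 5876 to 7206 TPM, and its part in any result was not tested.

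After scaling, 0 of the 5 members with a mean of at least 1 TPM passed the test in either direction (limma on log2(scaled TPM + 1), adjusted p under 0.05), compared with 29.2% of all 14686 tested genes (16.2% higher and 13.0% lower) and 13.4% of 1703 tested long noncoding RNA genes. At an unadjusted p under 0.05, 2 of the 5 were below it, beside 43.4% of all tested genes. MALAT1 and KCNQ1OT1 lay under the 1 TPM filter. In an alternative that used the reads recovered from TPM and gene length (limma-voom), which tests all 7, CYTOR and PVT1 were higher and NORAD and OIP5-AS1 lower after PDS (4 of 7, compared with 35.2% of 15174 genes and 14.2% of 2083 long noncoding RNA genes). Of all genes, 18.1% were higher and 17.2% lower by this test. With TPM as deposited, 3 of 5 were lower (NEAT1, NORAD and OIP5-AS1), but so were 71.8% of all genes, and 74.3% changed in either direction. The groups did not overlap for 4 of the 5 tested members, as for 70.8% of all tested genes. In RNA from bulk cells, a change in how many cells carry an RNA and a change in its amount per cell cannot be told apart.

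**Figure D3:**
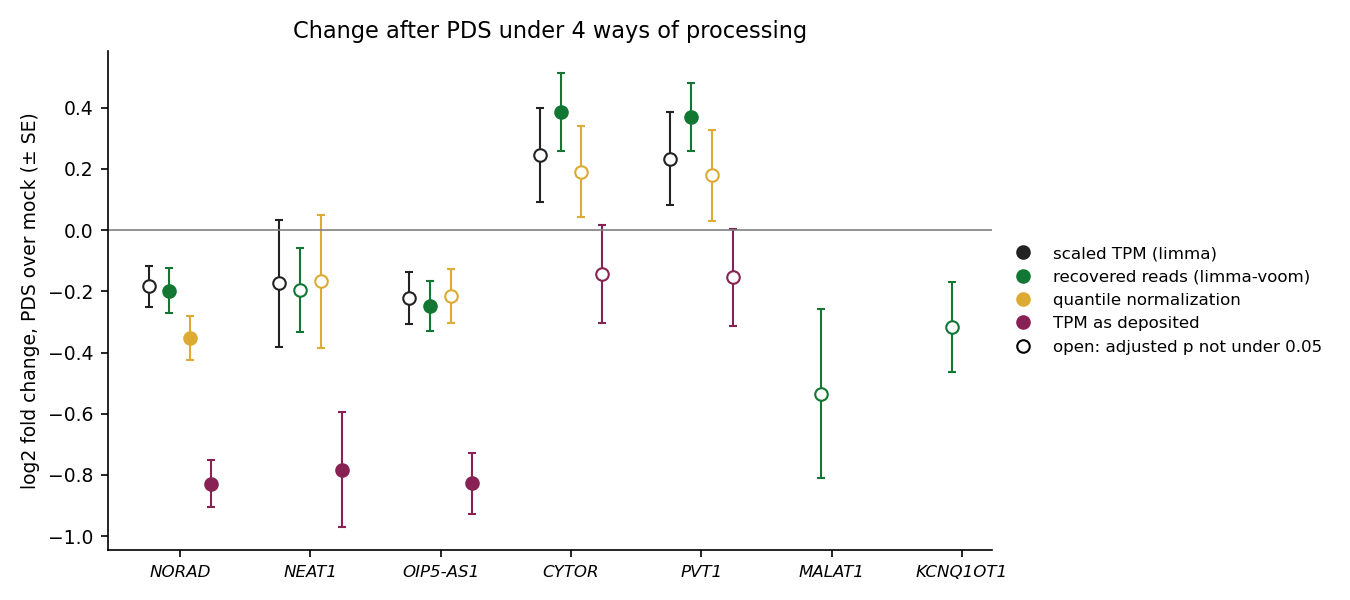
Log2 fold change, PDS over mock, with its SE for each RNA under 4 ways of processing, with filled points where the adjusted p was under 0.05. CYTOR and PVT1 are above 0 except with TPM as deposited, NORAD, OIP5-AS1 and NEAT1 are below 0 in all 4, and MALAT1 and KCNQ1OT1 have only the value from recovered reads.

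NORAD, the guard of Pumilio proteins, was measured at 246 TPM in mock 1, 281 in mock 2, and 148 in both PDS 1 and PDS 2. After scaling, the same libraries stood at 199.8, 221, 183 and 186, so both PDS libraries were lower than both mock libraries and the groups did not overlap. The log2 fold change was -0.18 ± 0.0662 (SE, 2 libraries per group, limma adjusted p = 0.0974), which did not pass. From the recovered reads (15928, 13887, 4945 and 6159) limma-voom gave -0.20 ± 0.0727, with an adjusted p of 0.0448 and a 95% interval from -0.34 to -0.06. Quantile normalization gave -0.35 (limma adjusted p = 0.0265). The limma-voom call was lost without mock 2 (-0.13, adjusted p = 0.34), without PDS 1 (adjusted p = 0.139) and without PDS 2 (adjusted p = 0.0676). The direction was the same in all 20 alternatives, and NORAD passed as lower in 4 of them.

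OIP5-AS1 (ENSG00000247556.6) lies on chromosome 15 (41283958 to 41322392, plus strand, for its GENCODE 44 version ENSG00000247556.7). It was measured at 18.6 and 22.1 TPM in the mock libraries and at 11.4 and 10.6 TPM in the PDS libraries. Scaled values were 15.1, 17.3, 14.1 and 13.4, and the PDS libraries were again both below the mock libraries. The log2 fold change of -0.22 ± 0.0859 did not pass (limma adjusted p = 0.115), whereas limma-voom on 2824, 2559, 891 and 1040 reads gave -0.25 ± 0.0826 (adjusted p = 0.0285). Without mock 2 the limma value was -0.13 (adjusted p = 0.394) and the limma-voom value -0.15 (adjusted p = 0.228), and the limma-voom call was also lost without PDS 2 (adjusted p = 0.136). Removal of trends with exon length and GC content left -0.03 (limma adjusted p = 0.808), so the size of this difference moved over 1.5 times with that step. OIP5, a gene on the opposite strand whose name the RNA carries and whose product takes part in centromere assembly, stood at 16.5, 18.1, 18.5 and 16.2 scaled TPM, with overlapping groups (0.00 ± 0.09, limma adjusted p = 0.99). The exon length of OIP5-AS1 in the annotation behind the table could not be fixed to a single value. Its read numbers, and with them its limma-voom SE and adjusted p, rest on the shortest of 3 possible lengths (12673 bases). Its TPM and its ratio of TPM between libraries do not depend on this choice.

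NEAT1 (ENSG00000245532.11), the paraspeckle scaffold, lies before MALAT1 on chromosome 11 (65422774 to 65445540, plus strand). Its values are those of the whole gene, whose 9 annotated transcripts were not told apart. NEAT1 was measured at 26.5 TPM in mock 1, 17.3 in mock 2, 12.0 in PDS 1 and 12.1 in PDS 2. Scaled values were 21.5, 13.6, 14.8 and 15.3, so that the PDS libraries fell between the mock libraries, which differed 1.58-fold from each other. The log2 fold change of -0.17 ± 0.207 did not pass (limma adjusted p = 0.559), nor did the value from 7228, 3603, 1686 and 2132 reads (limma-voom -0.19, 95% interval from -0.46 to 0.07, adjusted p = 0.292). Mock 1 decided the sign, since without it the log2 fold change was 0.13, and without mock 2 it was -0.49 (limma on scaled TPM). Without mock 2 the limma-voom value was -0.53 (adjusted p = 1.3e-05), and without mock 1 it was 0.14.

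All 18 paraspeckle protein genes were tested, of which 7 fell, 0 rose and 11 did not pass (limma), compared with 13.0% of all tested genes that fell. The median log2 fold change of the list was -0.16, beside 0.00 over all tested genes, and the 4 largest changes were found for SMARCA4, a chromatin remodelling ATPase (-0.47, adjusted p = 0.00866), TARDBP (-0.34, adjusted p = 0.0229), HNRNPH3 (-0.34, adjusted p = 0.015) and HNRNPUL1 (-0.34, adjusted p = 0.0196), the other three being RNA-binding proteins. SMARCA4 stood at 33.3 and 32.8 scaled TPM in the mock libraries and at 24.0 and 23.2 in the PDS libraries. The core paraspeckle proteins, named after their values were seen, gave -0.23 for NONO (limma adjusted p = 0.0476), -0.07 for SFPQ (adjusted p = 0.416) and -0.22 for PSPC1 (adjusted p = 0.145). With TPM as deposited all 18 were lower. With length and GC trends removed 4 fell and 1 rose, with a median of -0.09, and 2 fell when variances did not follow the mean. The count that fell was 10 by quantile normalization, 5 without mitochondrial genes, 4 with the replicate block and 1 without a filter. With a filter at a mean of 5 TPM, which all 18 passed, it was 8, beside 2044 of all 9649 genes tested. The median of the list was -0.24 without mock 1, -0.17 without mock 2, -0.16 without PDS 1 and -0.18 without PDS 2 (limma on scaled TPM).

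MALAT1, the speckle RNA, was measured at 1.249 and 0.953 TPM in the mock libraries and at 0.622 and 0.396 TPM in the PDS libraries. Scaled values were 1.01, 0.748, 0.771 and 0.4995, and PDS 1 lay just above mock 2, so the groups overlapped. The reads behind them were 132, 77, 34 and 27, and the count of 27 alone has an exact Poisson interval from 17.8 to 39.3, which covers counting error only. The limma-voom log2 fold change was -0.53 ± 0.275 (adjusted p = 0.146, 95% interval from -1.07 to 0.01), which did not pass. Single libraries moved this value in both directions. It was -0.73 without mock 2 (limma-voom adjusted p = 0.0483) and -0.80 without PDS 1 (adjusted p = 0.0689), but -0.30 without mock 1 (adjusted p = 0.489) and -0.21 without PDS 2 (adjusted p = 0.665).

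The level of MALAT1 has to be read beside its annotation. Of its 10434 exon bases in GENCODE 44, 8731 (83.7%) lie over annotated exons of the opposite strand, chiefly of the antisense RNA TALAM1. This share was at most 3.39% for the other 6 members and 0 for NEAT1 and NORAD. The level of MALAT1 rests on another version, inferred to be 8829 bases long, for which the overlap was not computed. TALAM1 itself was measured at 0.0309 to 0.0404 TPM, on 2 or 3 reads per library. The next shares cover genes matched by identifier and version, with recovered reads and at least 200 exon bases, a set without MALAT1. Of those with at least 80% of their exon bases over opposite-strand exons, 749 of 925 (81.0%) had 0 reads in all libraries. This was so for 11.8% of 35333 genes without overlap with other exons. Among protein-coding genes these shares were 59.1% of 44 and 2.93% of 10107, and 13.6% of the 44 had at least 100 reads. Its part in the low value of MALAT1 was not tested, and the strand setting of the read counting was not given in the sources used here.

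Of the 15 nuclear speckle genes, 6 fell, 0 rose and 9 did not pass (limma). Over all tested genes, 13.0% fell and 16.2% rose. With a filter at a mean of 5 TPM, 9 of the 13 speckle genes tested fell, beside 2044 of all 9649 genes tested. The median log2 fold change of the 15 was -0.19, and all 15 were lower with TPM as deposited. The largest changes were those of PNN, an RNA-binding protein of speckles (-0.75, adjusted p = 0.00549), SRRM2 (-0.64, adjusted p = 0.0129) and SRRM1 (-0.54, adjusted p = 0.0115), both of which are scaffolding or splicing coactivator proteins, and SRSF1, a splicing factor (-0.42, adjusted p = 0.0454). PNN stood at 213 and 198.6 scaled TPM in the mock libraries and at 122 in both PDS libraries. The median of the 15 was -0.18 without mock 1 and -0.24 without mock 2 (limma on scaled TPM). With all libraries limma-voom gave 6 lower and 1 higher, namely the splicing kinase gene CLK1, named after its values were seen (0.25, adjusted p = 0.038). Among 11 tested genes of the MALAT1 end processing list, 2 fell and 0 rose, namely METTL16 (-0.44, limma adjusted p = 0.0222), an RNA methyltransferase that binds the triple helix shown above, and ELAC2 (-0.22, adjusted p = 0.0445), the nuclease RNase Z that trims the small tRNA-like RNA cut from this end. The 9 other genes, mostly subunits of RNase P, which makes that cut, did not pass, and the median of the list was 0.01. The share of the list that passed (18.2%) was under that of all tested genes (29.2%).

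KCNQ1OT1 (ENSG00000269821.1), which overlaps KCNQ1 on the opposite strand (chromosome 11, 2597308 to 2700003, minus strand, for its GENCODE 44 version ENSG00000269821.2), was the lowest of the 7 in every library. It was measured at 0.598 and 0.459 TPM in the mock libraries and at 0.285 and 0.263 TPM in the PDS libraries. Scaled values were 0.485, 0.36, 0.354 and 0.331, so mock 2 lay next to the PDS libraries and mock 1 apart from them. On 656, 385, 162 and 186 reads, limma-voom gave -0.32 ± 0.146 (adjusted p = 0.105), and a single mock library decided this value, which was -0.52 without mock 2 (adjusted p = 0.00167) and -0.09 without mock 1 (adjusted p = 0.66).

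Of 12 listed genes in or near its imprinted domain, 5 were tested, of which 2 rose, 0 fell and 3 did not pass (limma). Over all tested genes, 16.2% rose. The median of the list, 0.00, was the value of IGF2, which like H19 belongs to a neighbouring imprinted domain. PHLDA2, an imprinted gene known for limiting placental growth, was at 12.7 and 6.44 scaled TPM in the mock libraries and at 28.5 and 28.2 in the PDS libraries. The mock libraries thus differed between themselves, yet both PDS libraries were higher (1.54 ± 0.283, limma adjusted p = 0.0196), and PHLDA2 was also higher with TPM as deposited (0.94, adjusted p = 0.0209). TSSC4 was higher after scaling (0.32, adjusted p = 0.0296) but lower with TPM as deposited (-0.31, adjusted p = 0.0113). KCNQ1, the potassium channel gene in which the RNA lies, and CDKN1C, the cell cycle inhibitor of the region, were at or under 0.208 TPM in every library and could not be tested.

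CYTOR (ENSG00000222041.13), on chromosome 2 (87454781 to 87636740, plus strand), was measured at 1.71 and 1.54 TPM in the mock libraries and at 1.46 and 1.30 TPM in the PDS libraries. Scaled values were 1.39, 1.21, 1.81 and 1.64, so both PDS libraries were higher than both mock libraries. The log2 fold change was 0.24 ± 0.153 on the log2(scaled TPM + 1) scale, which understates the change of such a low gene, and did not pass (limma adjusted p = 0.278). From 364, 251, 161 and 178 reads limma-voom gave 0.39 ± 0.127 (adjusted p = 0.0266), and with TPM as deposited the sign turned to -0.14 (limma adjusted p = 0.448). The limma-voom call did not survive the loss of mock 2, PDS 1 or PDS 2 (adjusted p = 0.114, 0.152 and 0.0616).

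CYTOR has a near-identical copy on the same chromosome, MIR4435-2HG, and reads that fit both cannot be assigned with certainty. Of 15220 stretches of 100 bases in the exons of CYTOR, 7323 (48.1%) also occur in the body of the copy. The promoters share an identical run of 241 bases, which lies at chr2:87455177-87455417 in CYTOR and is shown to make the identity plain.
CYTOR: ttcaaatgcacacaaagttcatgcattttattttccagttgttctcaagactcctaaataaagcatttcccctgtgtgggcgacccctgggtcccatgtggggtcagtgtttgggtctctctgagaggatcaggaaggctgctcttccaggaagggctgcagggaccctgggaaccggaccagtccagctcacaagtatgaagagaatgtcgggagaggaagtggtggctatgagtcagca

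MIR4435-2HG stood at 1.73 and 1.71 scaled TPM in the mock libraries and at 1.97 and 1.95 in the PDS libraries (0.12 ± 0.132, limma adjusted p = 0.517). Both PDS libraries were higher than both mock libraries, as for CYTOR. The reads of both genes together were 1238, 931, 497 and 587, or 714, 686, 836 and 819 after scaling, a log2 difference of 0.24 given without a test. Whether reads that fit both genes were counted or dropped is not given in the sources used here, so this sum may lack them.

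PVT1 (ENSG00000249859.14), on chromosome 8 (127794526 to 128187101, plus strand), was nearly equal to CYTOR in every library, with 1.72, 1.55, 1.43 and 1.30 TPM in mock 1, mock 2, PDS 1 and PDS 2. Scaled values were 1.39, 1.22, 1.77 and 1.64, and both PDS libraries were higher than both mock libraries. The log2 fold change of 0.23 ± 0.152 did not pass (limma adjusted p = 0.294), whereas limma-voom on 523, 360, 225 and 256 reads gave 0.37 ± 0.112 (adjusted p = 0.017), and TPM as deposited gave -0.15 (limma adjusted p = 0.412). The limma-voom call was lost without mock 2, PDS 1 or PDS 2 (adjusted p = 0.0873, 0.0944 and 0.0571). MYC, the oncogene 51575 bases before PVT1, was at 152 and 157 scaled TPM in the mock libraries and at 128 and 138 in the PDS libraries (-0.22 ± 0.0605, limma adjusted p = 0.0528). MYC was thus lower in both PDS libraries, opposite to PVT1, and neither difference passed on scaled TPM.

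**Figure D4:**
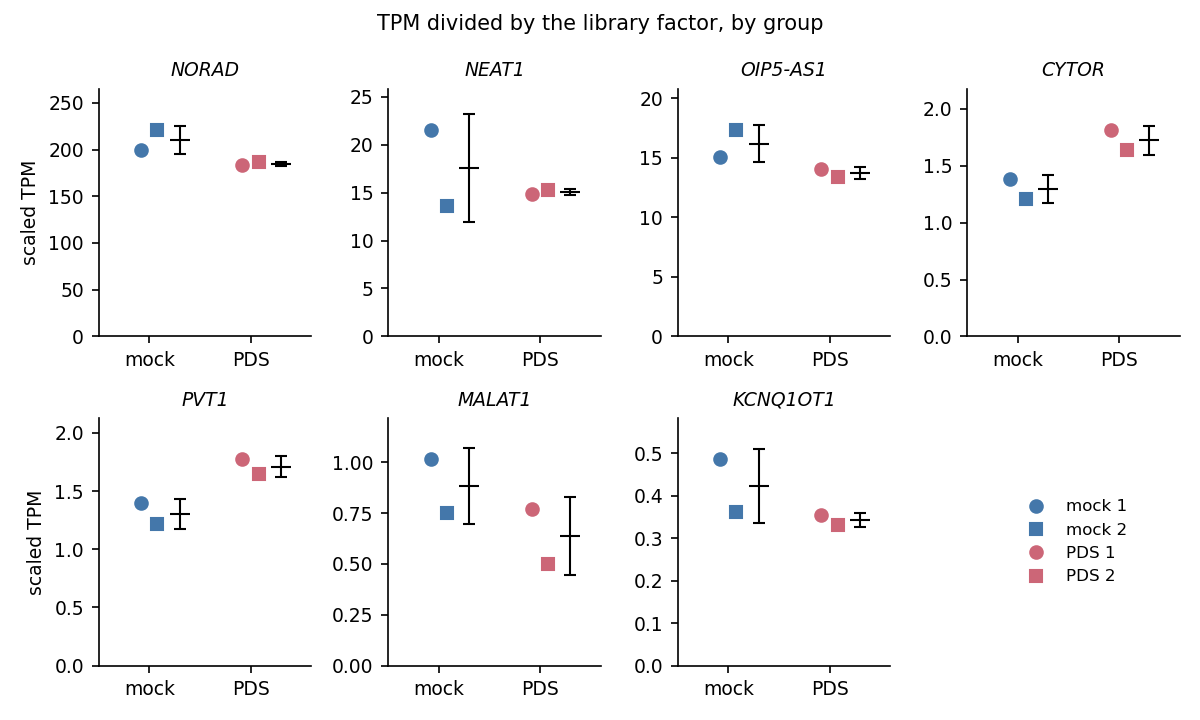
Scaled TPM of each RNA by group, with circles for library 1, squares for library 2, and the mean ± SD (n = 2) in black beside them. Both PDS points lie above both mock points for CYTOR and PVT1 and below them for NORAD and OIP5-AS1, whereas the PDS points of NEAT1 lie between the mock points.

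Taken as a share of the library, the 7 RNAs made up 0.0311% ± 0.00198 (SD, n = 2) of TPM in the mock libraries and 0.0174% ± 0.0000861 in the PDS libraries. Most of this was NORAD, and the 6 others summed to 0.00471% and 0.00266%. Without the genes of the mitochondrial genome the shares were 0.0365% and 0.0274%. The ratio of PDS to mock was thus 0.561 with these genes and 0.751 without them. As shares of recovered reads they were 0.0702% and 0.0516%.

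Of 22 tested protein-coding genes beside or overlapping the members, including MYC, 4 rose, 2 fell and 16 did not pass (limma), a share close to the 29.2% of all tested genes that changed. Beside NORAD, SCAND1, a SCAN-domain protein, rose (0.68 ± 0.0746, adjusted p = 0.00752) and PHF20, a chromatin reader, fell (-0.34 ± 0.0699, adjusted p = 0.0259). FRMD8, the nearest tested gene before NEAT1 at 9249 bases, rose (0.42 ± 0.0885, adjusted p = 0.0262), and RTF1, a transcription elongation factor after OIP5-AS1, fell (-0.26 ± 0.0694, adjusted p = 0.0469). With TPM as deposited FRMD8 was at -0.18 and SCAND1 at 0.03, and neither passed.

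Among 56 further regulatory long noncoding RNAs in the table, 21 were tested, of which 5 rose, 3 fell and 13 did not pass (limma), with a median of 0.03 (38.1% passed, beside 29.2% of all tested genes). The largest changes were those of PURPL, a p53-regulated RNA (-0.70, adjusted p = 0.0176), MIR22HG, the host of miR-22 (0.61, adjusted p = 0.0131), LINC00963 (0.58, adjusted p = 0.0147) and MIR210HG, the host of the hypoxia microRNA miR-210 (0.55, adjusted p = 0.0363). With TPM as deposited none of the 21 was higher and 13 were lower. The median was 0.003 without mock 1 and 0.03 without mock 2 (limma on scaled TPM, 20 tested). Of 18 genes for nuclear RNA decay, 4 fell and 1 rose (limma), with a median of -0.11. The share that passed, 27.8%, was close to the 29.2% of all tested genes. With a filter at a mean of 5 TPM, 4 of the 18 fell and 2 rose, while 4359 of all 9649 genes tested changed. MTREX, the helicase that feeds nuclear RNA to the exosome (-0.46, adjusted p = 0.01), and the exosome subunit genes EXOSC2 (-0.36, adjusted p = 0.0268) and EXOSC8 (-0.33, adjusted p = 0.0282) fell, whereas the subunit gene EXOSC4 rose (0.40, adjusted p = 0.0201) but was lower with TPM as deposited (-0.24, adjusted p = 0.0209).

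**Figure D5:**
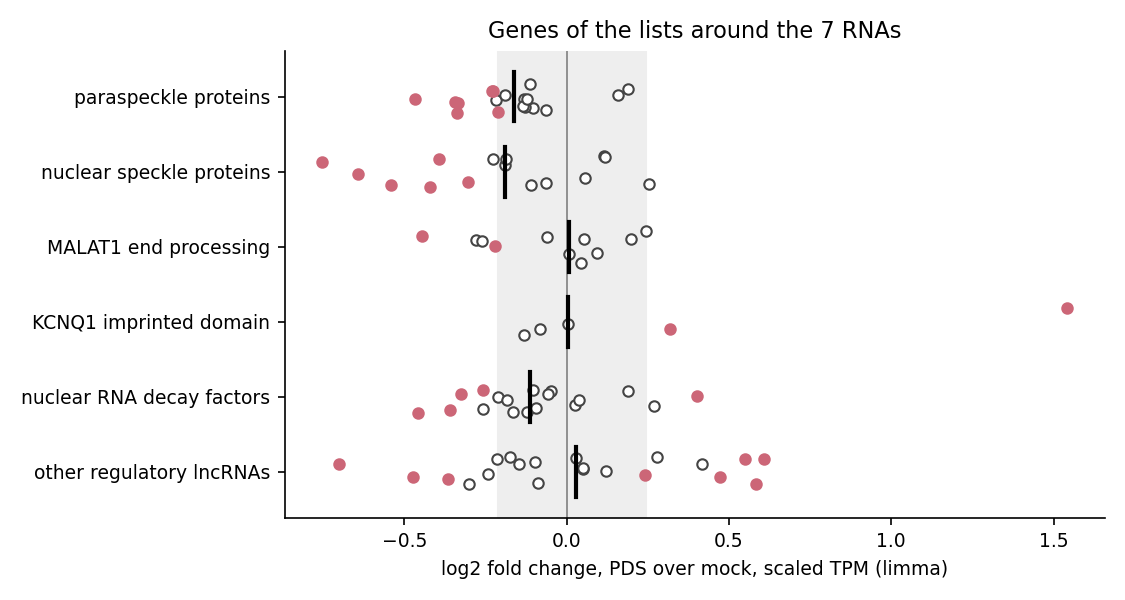
Log2 fold change on scaled TPM of the tested genes of each list, with filled points for genes at an adjusted p under 0.05, a black bar at the list's median, and a grey band for the middle 50% of all tested genes (-0.21 to 0.25). Paraspeckle and nuclear speckle genes that passed lie below 0, and PHLDA2 stands apart at 1.54.

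The genes whose profile over the 4 libraries was most like that of a member were sought among 9649 tested genes of at least 5 TPM by the Euclidean distance of centred log2 values. For NORAD they were RIOK2 (distance 0.011) and LATS1 (0.0131), for OIP5-AS1 RNF144A (0.0144) and EFR3A (0.0229), for CYTOR ILVBL (0.0154) and PGF (0.016), and for PVT1 PGF (0.0139) and PSMD13 (0.0202). With 4 libraries such likeness is common, and 628, 308, 261 and 317 genes lay within a distance of 0.1 of these members. NEAT1 had no gene this close, and the nearest were TMEM80 (0.167) and the gene ENSG00000287828 (0.176).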

How the data were processed

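Poly(A) RNA of 4 HepG2 libraries was analysed from the table deposited as TPM, a length-corrected expression signal. According to the methods and processing notes, the authors used STAR (2.7.0) for alignment to GRCh38, featureCounts (2.0.3) for counting and DESeq2 (1.36.0) for testing. The sources used here do not give the annotation release, the strand setting or the formula of TPM. Group averages deposited beside the libraries were not tested, and 2 unnamed rows of column totals were dropped.

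Identifiers were matched to GENCODE 44 (59984 of 61906 by identifier and version, 96.9%). Read numbers were recovered because the product of TPM and exon length moved in equal steps within a library (99.89% to 99.9% of values were whole within 0.05). The identifier versions of MALAT1, KCNQ1OT1 and OIP5-AS1 differed from GENCODE 44, so their lengths (8829, 91667 and 12673 bases) were taken as the shortest that gave whole reads in all 4 libraries, and for OIP5-AS1 3 lengths were possible. A total of 59923 genes had recovered reads.

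The main test was limma (version 3.58.1 under R 4.3.3), two-sided, for 14686 genes whose mean reached 1 TPM. Scaled TPM entered as log2 after addition of 1, variances were allowed to follow the mean, and p-values were adjusted over all these genes by Benjamini-Hochberg, with 0.05 as threshold. Since the table held no counts, the count test of the study was not repeated. limma-voom on recovered reads (mean of at least 10 reads) was an alternative, as were other scalings, pseudocounts of 0.1 and 5, filters, a replicate block, length and GC trends, and leaving out each library. With 2 libraries per group, the smallest two-sided p of an exact permutation test is 0.333. Intervals of read numbers cover counting error only. The 95% intervals of log2 fold changes were taken from the SE by the normal distribution. They are thus narrower than intervals from the t distribution behind the limma-voom p-values. The scripts were tested on simulated data. Results for some genes are not reported here. The 7 members, the gene lists and the tests were chosen with earlier results of these data known. Named genes were all members, up to 4 genes past the threshold by size of change from each list, up to 3 tested protein-coding genes within 300 kb on either side of a member, genes that overlap one, MYC, and the 2 nearest profiles. Promoter windows were RefSeq's (GRCh38), of which those of 4 members were used.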

Additional observations from a re-analysis of the deposited data

How the results depend on the processing

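The number of genes called (4283 on scaled TPM) was 10917 with TPM as deposited (379 higher and 10538 lower, in place of 2377 and 1906), 1237 without a filter, 2817 with the replicate block and 2345 with the replicate block and length and GC trends removed. Leaving out 1 library gave 0 to 2117 genes on scaled TPM, with 178 without mock 1 and 0 without mock 2 (4173 at an unadjusted p under 0.05), and 4184 to 5086 with limma-voom. The number of members called (0) was 3 with TPM as deposited, 1 by quantile normalization and 4 with limma-voom, and leaving out 1 library gave 0 in every case on scaled TPM and 0 to 4 with limma-voom. Without mock 2 the 3 members called by limma-voom were MALAT1, NEAT1 and KCNQ1OT1, all lower. OIP5-AS1 alone was called without PDS 1 and no member without PDS 2, so that single libraries of either group changed which members were called. The replicate numbers did not pair the libraries (correlation -0.03 between mock 1 and PDS 1), and the block changed no call among the members.

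The sign turned for NEAT1 to 0.012 when length and GC trends were removed, with or without the replicate block, to 0.13 without mock 1 (-0.49 to 0.13 over the libraries left out), and to 0.14 by limma-voom without mock 1. It turned to -0.14 for CYTOR and to -0.15 for PVT1 with TPM as deposited. NORAD and OIP5-AS1 kept their sign in 20 of 20 alternatives. The share held by the members moved from 0.0311% to 0.0702% of reads and 0.0365% of TPM without mitochondrial genes in mock, and from 0.0174% to 0.0516% and 0.0274% after PDS. MALAT1 rested on 27 to 132 reads per library, and its limma-voom value ran from -0.80 to -0.21 over the libraries left out.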
